A study of Arabidopsis thaliana with 18 samples.

Results

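Roots of Arabidopsis thaliana seedlings (accession Columbia, Col-0) that had 625 µM phosphate, a full supply, were compared with and without cis-zeatin, a natural cytokinin, by sequencing of poly(A) RNA. The comparison was taken from the labels and held 6 of the 18 root libraries, 3 from untreated roots and 3 from roots given 5 µM cis-zeatin for 8 h after 8 days of growth. The study also had 3 libraries of roots given 5 µM trans-zeatin for 8 h in full phosphate, and the same 3 states (untreated, cis-zeatin, trans-zeatin; 3 libraries each) in seedlings grown with 5 µM phosphate, a low supply. The labels give no mock treatment for the untreated roots and do not say whether replicates came from separate cultures. The p-values therefore rest on the spread between libraries, estimated over all 18, and not on a known spread between cultures.

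Cytokinins are adenine-derived hormones. They bind histidine kinase receptors (AHK proteins), and the signal passes through phosphotransfer proteins (AHP) to type-B response regulators, DNA-binding activators that switch on early target genes. Among those targets are the type-A response regulators, which damp the pathway, and the cytokinin oxidases (CKX), which break the hormone down. cis-Zeatin and trans-zeatin differ in the geometry of the double bond in the side chain; the trans form is made through IPT enzymes and CYP735A hydroxylases, and the cis form arises from modified tRNA. In bioassays the cis form is usually the weaker of the pair.

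The 6 libraries held 20839562 to 21497073 counts each, and 19982 genes over the whole series had enough reads to be tested. Levels are given below as counts rescaled to a common library size (CPM), differences as log2 with a standard error (SE), and a gene was called changed when the Benjamini-Hochberg adjusted p of edgeR's quasi-likelihood test, over all tested genes, was under 0.05. By that rule 2537 genes (12.7% of those tested) rose with cis-zeatin and 2700 (13.5%) fell, 26.2% in either direction. Of these, 726 rose and 602 fell by at least 2-fold. The median difference over all tested genes was -0.03. All 10 root markers were detected in both groups; 2 rose and 5 fell, with a median difference of -0.42. PYK10, an abundant root beta-glucosidase, was 1 of the 2 root markers that rose. It was at 19567, 24554 and 23090 CPM in untreated roots and at 34230, 32532 and 34306 CPM with cis-zeatin. The water channel TIP2;3, given below among the leading falls (log2 difference -4.01), was 1 of the 5 that fell. The 9 tested photosynthesis genes, a sign of shoot tissue, summed to 65.2 to 113 CPM in untreated roots and to 64.9 to 69.6 CPM with cis-zeatin, and none passed the test, although 4 were lower without untreated replicate 1, 3 without untreated replicate 3 and 1 without cis-zeatin replicate 3. One of 10 clock genes and none of 10 handling genes (touch, wounding, heat) passed it; the clock gene was CCA1 (log2 difference 0.49, adjusted p = 0.0205 by edgeR's quasi-likelihood test), which missed the threshold without untreated replicate 2 (adjusted p = 0.14), cis-zeatin replicate 1 (0.0625) or cis-zeatin replicate 3 (0.106).

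A technical count separates the groups. The sequencing report lists 84024 to 84595 reads discarded for undetermined bases in the untreated full-phosphate libraries and 81544 to 85178 in the trans-zeatin ones, but 23060 to 25354 in the cis-zeatin ones. The labels name no sequencing run, so a sequencing set and the cis-zeatin treatment cannot be told apart in any comparison below that sets the full-phosphate cis-zeatin libraries against the other full-phosphate libraries. In low phosphate the untreated libraries had 22738 to 23728 such reads and the cis-zeatin ones 40794 to 57285, so the same holds for the difference between responses in low and full phosphate. As these are whole roots, fewer cells of a type and less RNA per cell cannot be told apart either.

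Type-A response regulators rose as a group: 9 of the 10 tested passed, none fell, and the median difference was 1.76. ARR5 was at 31.3, 34.9 and 36.7 CPM in untreated roots and at 188, 199 and 215 CPM with cis-zeatin, a log2 difference of 2.55 (SE 0.11, adjusted p = 6.01e-13 by edgeR's quasi-likelihood test). ARR7 went from 24.3, 23.8 and 25.7 to 76.4, 84.9 and 86.9 CPM, a log2 difference of 1.75 (SE 0.10). ARR16 went from 1.67, 1 and 2.01 to 20.1, 24 and 25 CPM, a log2 difference of 3.88 (SE 0.19). In each of these genes the lowest cis-zeatin library lay above the highest untreated one. Libraries did not overlap in 45.4% of all tested genes, so here and below such separation is description only.

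The other type-A members differed mainly in how large the rise was. ARR3 (1.78), ARR4 (1.12), ARR6 (1.43), ARR8 (0.90) and ARR15 (3.48) all passed, on the log2 difference scale. ARR17 was at 0, 0.091 and 0.503 CPM in untreated roots, at or near the floor of 3 reads in part of these libraries, and at 2.67, 3.37 and 2.76 CPM with cis-zeatin; its fitted difference of 3.86 became 5.84 without untreated replicate 3. ARR9 was the member that did not pass, with 61.9, 62.3 and 60.1 CPM in untreated roots and 67.4, 67.4 and 74.6 CPM with cis-zeatin (log2 difference 0.18, SE 0.08, adjusted p = 0.0932 by edgeR's quasi-likelihood test). Its libraries did not overlap between groups either, and it passed when only the compared groups were fitted (adjusted p = 0.0116 by edgeR).

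**Figure D1:**
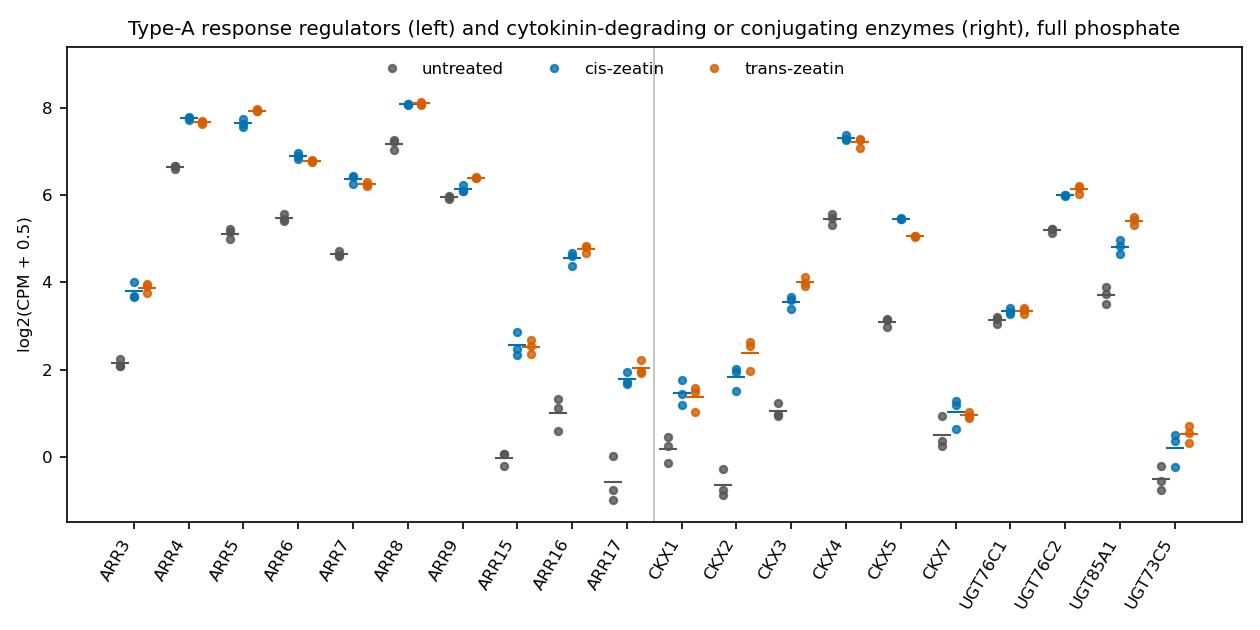
Level, as log2(CPM + 0.5), of 10 type-A response regulators and 10 cytokinin-degrading or conjugating enzymes in each full-phosphate library, with dots for libraries and short lines for the mean of 3. The cis-zeatin libraries lie above the untreated ones in all 10 type-A genes, closest in ARR9 (67.4 to 74.6 against 60.1 to 62.3 CPM), and lie near the trans-zeatin libraries in most.

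Genes for cytokinin breakdown and conjugation moved the same way, with 8 of 10 tested members higher, none lower and a median difference of 1.72. CKX5 was at 7.31, 8.33 and 8.45 CPM in untreated roots and at 43.7, 43.1 and 43.2 CPM with cis-zeatin (log2 difference 2.43, SE 0.08, adjusted p = 2.1e-14 by edgeR's quasi-likelihood test). CKX4, from the same oxidase family, went from 39.4, 44.3 and 47.2 to 167, 157 and 154 CPM (1.87, SE 0.11), and CKX3 from 1.85, 1.46 and 1.42 to 11.5, 9.95 and 12.2 CPM (2.82, SE 0.15). The groups were far apart in all 3 of these oxidases. CKX1 also rose (1.8), as did CKX2. In untreated roots CKX2 was at 0.0455 to 0.316 CPM, at or near the floor of 3 reads in part of these libraries. With cis-zeatin it was at 2.33 to 3.54 CPM. Its fitted difference of 4.29 became 5.37 without untreated replicate 1. Among glucosyltransferases that conjugate cytokinins, UGT76C2 (0.81) and UGT85A1 (1.14) rose. UGT73C5 also passed (1.64), with libraries that overlapped between groups, and missed the threshold without any one of 4 libraries, as in the fit without untreated replicate 3 (adjusted p = 0.0871 by edgeR); its difference was 2.26 without untreated replicate 2. CKX7 (log2 difference 0.72, adjusted p = 0.112) and UGT76C1 (0.22, adjusted p = 0.13) did not pass, and CKX6 had 0 to 6 reads per library and was not tested.

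Cytokinin synthesis split by enzyme class. The adenylate isopentenyltransferases IPT3, IPT5 and IPT7, which start the synthesis of the isopentenyl and trans-zeatin types, all fell. IPT5 was at 24.0, 20.2 and 19.9 CPM in untreated roots and at 2.72, 3.42 and 3.37 CPM with cis-zeatin (log2 difference -2.75, SE 0.15, adjusted p = 1.66e-11 by edgeR's quasi-likelihood test). IPT3 went from 14.3, 15.2 and 14.9 to 4.13, 5.12 and 4.75 CPM (-1.66, SE 0.13), and IPT7 from 4.06, 4.19 and 3.66 to 0.291, 0.244 and 0.095 CPM, the last near the floor. No library of one group reached the other in these genes.

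The tRNA isopentenyltransferases IPT2 and IPT9, whose products include the cis-zeatin precursor, did not pass. IPT2 differed by 0.10 (SE 0.10, adjusted p = 0.539) and IPT9 by 0.04 (SE 0.11, adjusted p = 0.823), by edgeR's quasi-likelihood test, and their libraries overlapped. CYP735A2, a hydroxylase that turns isopentenyl-type cytokinins into trans-zeatin types, rose from 55.9, 58.0 and 61.9 to 264, 249 and 236 CPM (log2 difference 2.09, SE 0.11, adjusted p = 1.18e-11). Its homologue CYP735A1 rose by 0.76 (SE 0.10). Of the LOG genes, which release the active free base, LOG2 (2.32) and LOG8 (0.67) rose, LOG1 (-0.75) and LOG4 (-0.82) fell, and LOG3, LOG5 and LOG7 did not pass. LOG2 was at 0.316 to 1.28 CPM in untreated roots and its difference became 3.09 without untreated replicate 3; LOG4 missed the threshold without untreated replicate 2 (adjusted p = 0.063 by edgeR), without cis-zeatin replicate 1 (0.079) and without cis-zeatin replicate 2 (0.0527).

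Upstream in the pathway the changes were smaller. Among receptors, AHK4 rose from 122 to 128 CPM across untreated libraries to 196 to 203 CPM (log2 difference 0.67, SE 0.10), AHK2 fell (-0.45) and AHK3 did not pass (-0.12, adjusted p = 0.454 by edgeR's quasi-likelihood test). AHP1 (0.69) and AHP3 (0.44) rose, AHP2 and AHP5 had differences of 0.00, and AHP6, a pseudo-phosphotransfer protein that inhibits signalling, went from 0.640 to 0.812 CPM to 0 to 0.333 CPM, at or near the floor. Of 6 tested type-B regulators, ARR1 (-0.28), ARR2 (-0.34), ARR10 (-0.49) and ARR11 (-0.58) fell, ARR12 rose (0.40) and ARR14 did not pass. Of 6 cytokinin response factors, AP2-type transcription factors, CRF2 (-0.73) and CRF3 (-0.45) fell and CRF4 (0.40) and CRF5 (0.51) rose; CRF3 and CRF4 both missed the threshold without cis-zeatin replicate 1 (adjusted p = 0.0698 and 0.09) and without untreated replicate 1 (0.123 and 0.0502), and also without cis-zeatin replicate 3 (0.0524 and 0.0542), while CRF4 missed it without untreated replicate 2 as well (0.0743). AZG1, a purine and cytokinin transporter, rose from 23.2, 27.7 and 26.1 to 65.4, 63.2 and 66.2 CPM (1.34, SE 0.08). PUP14 (-0.35) and AZG2 (-0.62), further cytokinin transporters, fell, and the exporter ABCG14 did not pass (0.16, adjusted p = 0.139).

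The bases upstream of the genes were read for AGATACG, a letter string that type-B regulators bind in binding assays, on both strands of the 250 bases before each annotated gene start (RefSeq annotation, TAIR10.1; the authors' own alignment build is unstated here). It was present before 339 of 19943 tested genes (1.7%), before 2.68% of the genes that rose and 1.34% of those that fell, and before 0 of the 10 type-A genes and 0 of the 10 degradation genes. The 5 list members that passed the test and carried it are shown, since they moved in both directions. Each stretch is written 5′ to 3′ along the gene's strand, with the match in capitals (CGTATCT is AGATACG on the other strand). IPT3 fell (chr3:23319767-23319833, minus strand), and CHS, chalcone synthase, rose (chr5:4488322-4488388, plus strand). BCAT4, of aliphatic glucosinolate synthesis, fell (chr3:6849638-6849704, minus strand), and BGLU28, a glucosidase of sulfur deficiency, rose (chr2:18346154-18346220, plus strand). ABCG2, a suberin transporter, rose by 0.93 (adjusted p = 0.0415 by edgeR, chr2:15675939-15676005, minus strand). The ABCG2 call was lost without cis-zeatin replicate 2 or any one untreated library. With all libraries kept it was lost by DESeq2 (adjusted p = 0.0687) and with no filter on low counts (0.0526 by edgeR).
IPT3: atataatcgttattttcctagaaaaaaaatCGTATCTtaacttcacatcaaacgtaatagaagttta
CHS: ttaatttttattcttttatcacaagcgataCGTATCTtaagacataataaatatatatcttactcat
BCAT4: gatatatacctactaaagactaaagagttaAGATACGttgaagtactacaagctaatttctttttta
BGLU28: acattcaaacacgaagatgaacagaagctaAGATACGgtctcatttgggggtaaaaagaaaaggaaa
ABCG2: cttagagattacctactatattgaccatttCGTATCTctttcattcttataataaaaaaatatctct
A match is a description of these letters and not a bound site. The overlap of the match with other motifs was not examined, and GNATATNC, the letters read by the phosphate regulator PHR1, stood before 5.5% of all tested genes, 6.23% of those that rose and 6.32% of those that fell.

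Outside the cytokinin pathway, the 20 leading genes were the 10 steepest in each direction that passed the test, had a mean above the median level and had libraries that did not overlap (45.4% of all tested genes did not overlap, 20.1% higher and 25.3% lower). The rises were led by AT2G25150, an HXXXD-type acyltransferase, at 6.68, 9.15 and 13.5 CPM in untreated roots and 131, 143 and 143 CPM with cis-zeatin (log2 difference 3.83, SE 0.20, adjusted p = 4.7e-12 by edgeR's quasi-likelihood test). ST4B, a sulfotransferase, went from 52.8, 65.0 and 80.4 to 656, 681 and 751 CPM (3.40, SE 0.14). FLA6, a fasciclin-like arabinogalactan protein of the wall, went from 4.56, 7.55 and 6.35 to 63.4, 73.6 and 58.6 CPM (3.40, SE 0.21). These rises were between 10.5- and 14.2-fold. Separate libraries were a condition of the choice, so they add no support of their own.

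The other leading rises were AT1G14960, of the polyketide cyclase and lipid transport family (3.3), AT4G11190, a dirigent-like protein (3.15), the root hair wall protein PRP1 (3.15), the MATE-family transporter AT1G33100 (3.01), a second HXXXD-type acyltransferase, AT5G47980 (2.98), the iron transporter IRT2 (2.69) and the ABC transporter ABCG30 (2.62).

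The falls were led by AGP30, an arabinogalactan protein, at 173, 127 and 113 CPM in untreated roots and 4.81, 5.42 and 3.61 CPM with cis-zeatin (log2 difference -4.90, SE 0.27, adjusted p = 1.66e-11 by edgeR's quasi-likelihood test). SKOR, the outward potassium channel that loads potassium into the xylem, went from 67.7, 63.7 and 66.4 to 4.03, 3.07 and 4.09 CPM (-4.14, SE 0.13). TIP2;3, a water channel of the vacuole membrane, went from 152, 169 and 181 to 10, 9.08 and 12.1 CPM (-4.01, SE 0.15). These falls left AGP30 29.9-fold and TIP2;3 16.1-fold below untreated roots. The carbonic anhydrase ACA2 (-3.85), the uncharacterized AT4G39675 (-3.54) and AT2G22122 (-2.84), the peroxidase Prx37 (-2.77), AT4G13620, annotated as a DNA-binding protein (-2.73), the aquaporin PIP2;3 (-2.70) and AT3G20380, of the TRAF-like family (-2.60), completed the 10; reads of PIP2;3 and the near-identical PIP2;2 may be shared between them.

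**Figure D2:**
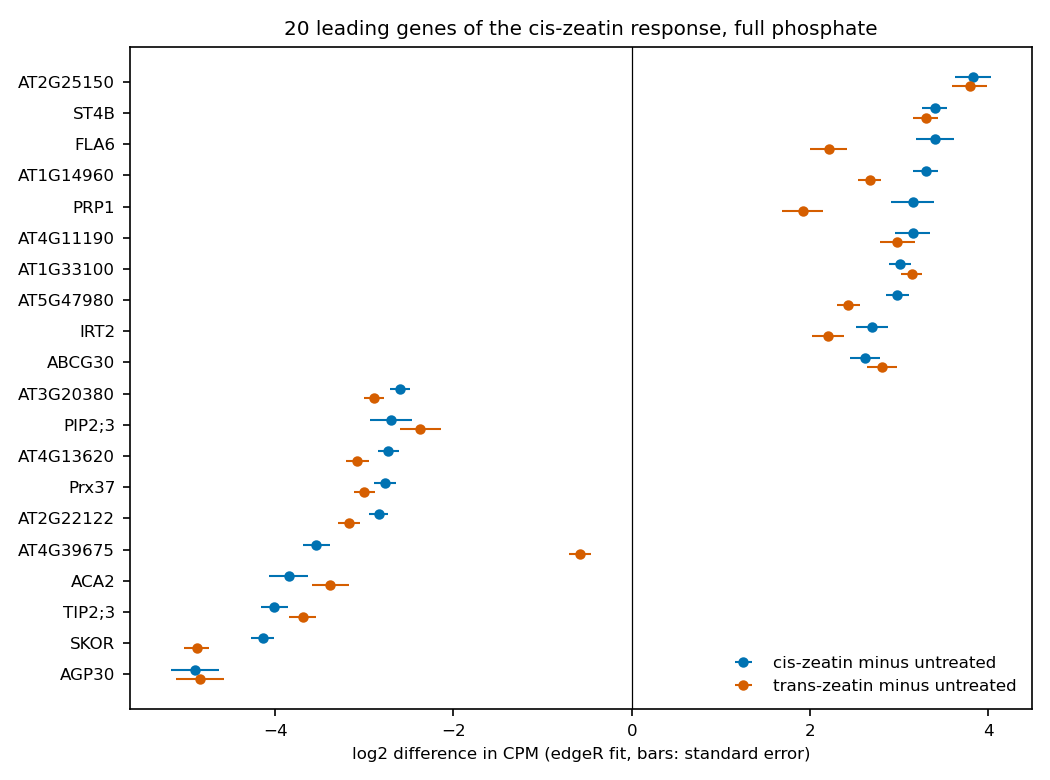
Log2 difference from untreated roots (x axis, with SE bars) of the 20 leading genes of the cis-zeatin response, for cis-zeatin and for trans-zeatin in full phosphate; the untreated libraries are the same for both. AGP30 (-4.90) and AT2G25150 (3.83) mark the ends for cis-zeatin, and AT4G39675 is the gene where the isomers lie farthest apart (-3.54 against -0.58).

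Membrane water channels were mostly lower. Of 6 tested tonoplast aquaporins 4 fell and 1 rose, with a median difference of -1.13, and of 13 plasma membrane aquaporins 8 fell and 1 rose, with a median of -0.34. TIP1;1 was at 1225, 1287 and 1324 CPM in untreated roots and at 323, 303 and 349 CPM with cis-zeatin (log2 difference -1.97, SE 0.13, adjusted p = 2.32e-10 by edgeR's quasi-likelihood test). TIP2;2 fell by 2.2 and TIP4;1 by 0.28, while TIP2;1 rose (0.32), a call lost without cis-zeatin replicate 3 (adjusted p = 0.0568). PIP1;1 went from 808, 939 and 995 to 179, 175 and 205 CPM (-2.29, SE 0.13), and PIP2;1 (-1.8), PIP2;2 (-1.40) and PIP1;2 (-1.29) fell as well. In the 3 aquaporins given by library above (TIP2;3, TIP1;1, PIP1;1) no treated library reached an untreated one. The plasma membrane list held 2 rises and 6 falls without cis-zeatin replicate 1.

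Genes for phosphate uptake and its control were lower: 12 of 22 tested members fell, none rose, and the median was -0.51. PHT1;4, a high-affinity phosphate transporter, was at 53.6, 47.7 and 43.0 CPM in untreated roots and at 7.96, 9.08 and 8.36 CPM with cis-zeatin (log2 difference -2.51, SE 0.10, adjusted p = 3.04e-13 by edgeR's quasi-likelihood test). PHO1, which exports phosphate to the xylem, went from 615, 548 and 546 to 260, 226 and 269 CPM (-1.18, SE 0.12). Its homologue PHO1;H1 (-1.48) and the transporter PHT1;9 (-1.10) also fell. Both PHT1;4 and PHO1 had separate ranges in the 2 groups; PHT1 genes are similar in sequence and may share reads. The 17 phosphatase and lipid remodelling genes stayed near the background, with 3 rises and 1 fall, against 12.7% of all tested genes higher and 13.5% lower. NPC4, a phospholipase (0.84), RNS1, a ribonuclease (0.85), and PAP10, an acid phosphatase (0.29), rose and PAP12, another acid phosphatase, fell (-0.22). Only NPC4 of these 4 passed with every single library left out: RNS1 missed the threshold without cis-zeatin replicate 2 (adjusted p = 0.0567 by edgeR), PAP10 without cis-zeatin replicate 1 (0.0689) and without untreated replicate 3 (0.0519), and PAP12 without either of those (0.161 and 0.1), without cis-zeatin replicate 2 (0.1) and without untreated replicate 2 (0.126). PAP12 also missed it with the replicate block (0.051), median-of-ratios scaling (0.0576) and no filter on low counts (0.0533).

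Nitrogen genes followed the same direction. Of 17 tested genes of nitrate uptake and assimilation, 11 fell and 2 rose, with a median of -0.51. NRT1.1, the dual-affinity nitrate transporter and sensor, was at 1210, 991 and 988 CPM in untreated roots and at 367, 345 and 329 CPM with cis-zeatin (log2 difference -1.62, SE 0.13, adjusted p = 6.03e-09 by edgeR's quasi-likelihood test). NIR1, nitrite reductase, went from 483, 435 and 443 to 180, 195 and 178 CPM (-1.30, SE 0.10). UPM1, which makes the sirohaem cofactor of nitrite reductase (-0.72), and GLN2, the plastid glutamine synthetase (-0.73), fell by less. All treated libraries lay below all untreated ones in these 4 genes, which were picked by adjusted p. The same held for 25.3% of all tested genes. The 3 tested ammonium transporters, AMT1;2 (-0.93), AMT1;3 (-0.46) and AMT2 (-0.57), all fell, although AMT1;3 missed the threshold without cis-zeatin replicate 2 (adjusted p = 0.0528); AMT1;1 had 1 to 7 reads per library and was not tested. Among 10 nitrate regulators, BT1 (-1.15), the transcriptional repressor LBD37 (-0.75), AT3G25790 (-1.16) and BT2 (-0.46) fell and AT1G68670 rose (0.30).

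Iron genes split. Of 23 tested uptake genes and regulators 10 fell and 5 rose, with a median of -0.25. IRT1, the main iron importer of the root epidermis, went from 98.7, 81.5 and 72.1 to 24.0, 21.2 and 16.7 CPM (log2 difference -2.03, SE 0.20, adjusted p = 7.85e-08 by edgeR's quasi-likelihood test), and its relative IRT2 went the other way, from 4.38, 7.05 and 7.45 to 40.0, 39.2 and 42.6 CPM (2.69, SE 0.18). FIT, the transcription factor that drives iron uptake, fell from 217, 189 and 196 to 76.4, 75.9 and 80.0 CPM (-1.37, SE 0.08). No library of one group lay within the other group's range in these 3 genes. FRO2, the ferric reductase (-1.73), and NRAMP1, a manganese and iron transporter (-0.88), fell with FIT. The rises numbered 3 without untreated replicate 3. Of 6 iron storage genes 4 fell, the vacuolar iron transporter-like VTL1 (-1.24), VTL2 (-0.98) and VTL5 (-1.19) and the ferritin FER3 (-0.66), and none rose. Sulfur genes were mixed, with 7 of 16 tested higher and 5 lower: the root sulfate importer SULTR1;1 (0.92) and the sulfur deficiency markers GGCT2;1 (1.62) and LSU2 (0.75) rose, and SULTR2;1, of vascular sulfate transport, fell (-0.87). BGLU28 was at 0.922, 4.15 and 0.998 CPM with cis-zeatin, so that its difference of 2.23 was 1.17 without cis-zeatin replicate 2 (adjusted p = 0.0547 by edgeR).

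**Figure D3:**
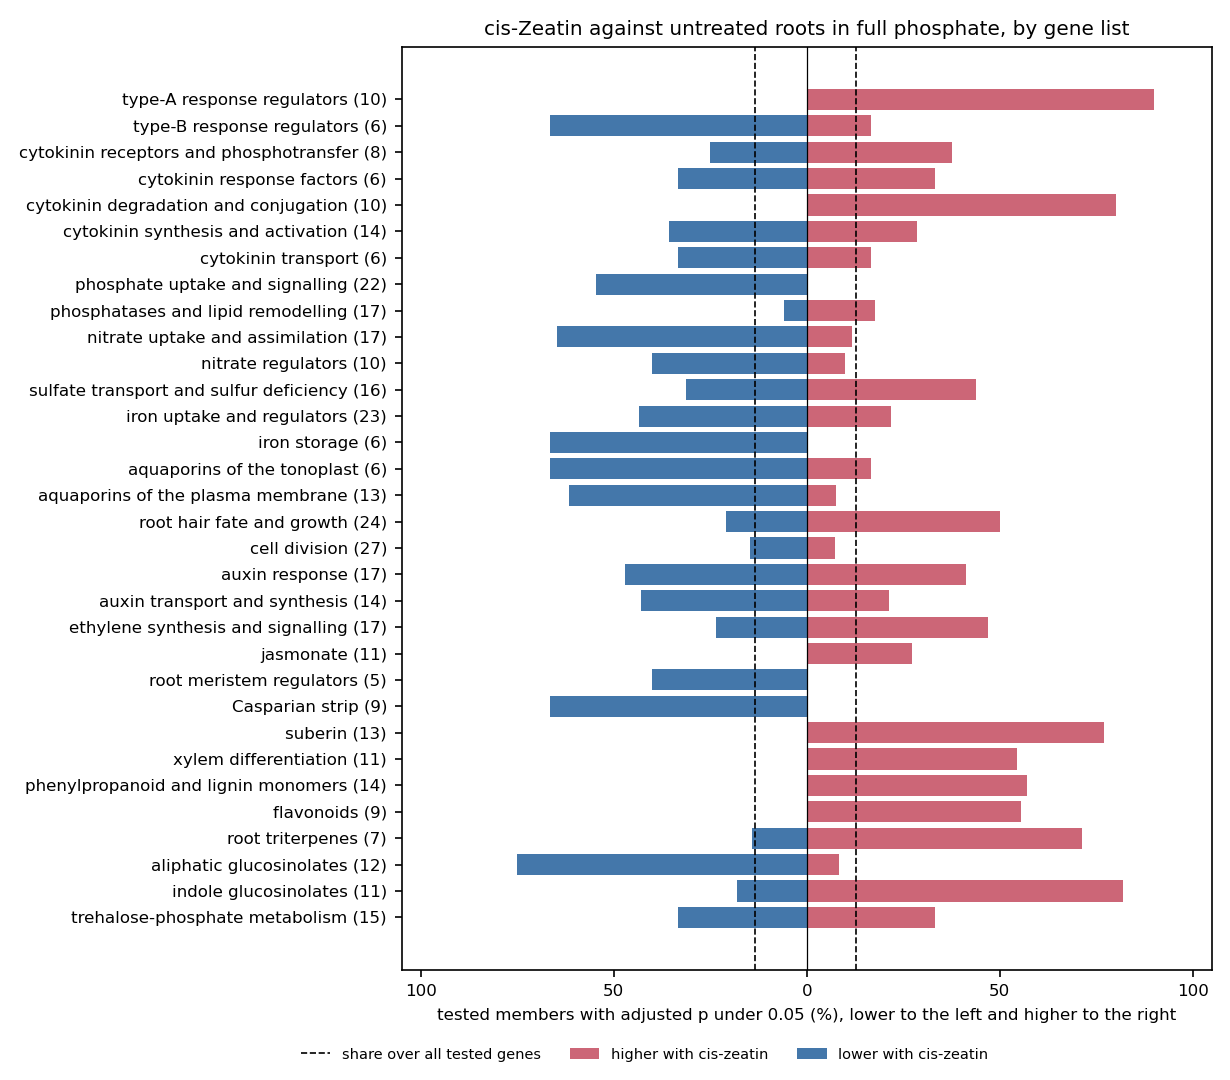
Share of tested members of each gene list with 5 or more tested members (number tested in parentheses) that rose, to the right, or fell, to the left, with cis-zeatin in full phosphate at an adjusted p under 0.05. Dashed lines give the shares over all tested genes, 12.7% higher and 13.5% lower; all called type-A regulators and suberin genes lie to the right and all called phosphate uptake genes to the left.

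Root hair genes were mostly higher. Of 24 tested members 12 rose and 5 fell, with a median of 0.61. PRP1, a proline-rich wall protein, was at 25.1, 31.1 and 33.8 CPM in untreated roots and at 293, 322 and 186 CPM with cis-zeatin (log2 difference 3.15, SE 0.24, adjusted p = 1.94e-09 by edgeR's quasi-likelihood test). PRP3, of the same family, went from 136, 164 and 177 to 570, 618 and 367 CPM (1.71, SE 0.23). RSL4, the transcription factor that sets root hair growth, went from 9.48, 9.28 and 9.41 to 17, 19.3 and 20.2 CPM (1.01, SE 0.11). The groups did not overlap in any of these. The wall genes were lowest in cis-zeatin replicate 3 among treated libraries, and that library also stood apart on the second principal component of the 6 libraries (7.9% of the variance); PRP1 and PRP3 passed without it too. RHS12, a pectin methylesterase-type wall gene, rose by 1.13. The members that fell were genes of cell fate: RHD6 (-0.35), RSL1 (-0.76), GL2 (-0.67), WER (-0.62) and ETC1 (-0.72) fell, and these 5 falls became 3 without cis-zeatin replicate 1, cis-zeatin replicate 3, untreated replicate 1 or untreated replicate 2.

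Genes for the inner barriers of the root went in opposite directions. Of 9 Casparian strip genes, which build the lignin ring of the endodermis, 6 fell and none rose (median -0.68). CASP1, a membrane scaffold of the strip, was at 207, 211 and 219 CPM in untreated roots and at 94.3, 98.7 and 106 CPM with cis-zeatin (log2 difference -1.09, SE 0.16, adjusted p = 1.5e-05 by edgeR's quasi-likelihood test). CASP5 (-1.05) and MYB36 (-0.68), the transcription factor that switches the strip genes on, also fell. Of 13 suberin genes 10 rose and none fell (median 0.67). FAR5, a fatty acyl reductase, went from 101, 92.8 and 104 to 221, 227 and 213 CPM (1.15, SE 0.13), FAR4 rose by 0.84, the fatty acid hydroxylase CYP86A1 by 0.77 and the suberin exporter ABCG20 by 0.87. The libraries of CASP1 and FAR5 did not overlap between groups. SHR (-0.54) and SCR (-0.68), the transcription factors that pattern the endodermis, fell, and PLT1, PLT2 and WOX5 did not pass.

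Of 14 tested phenylpropanoid genes 8 rose and none fell (median 0.24), led by 4CL1 (0.75), PAL4 (0.92), PAL1 (0.60) and CAD5 (0.46), enzymes from phenylalanine to lignin monomers. The rises numbered 5 without cis-zeatin replicate 3 and 5 without untreated replicate 1. Flavonoid genes gave 5 rises of 9 tested (median 0.69): CHS, the entry enzyme, went from 146, 129 and 119 to 330, 262 and 307 CPM (log2 difference 1.19, SE 0.13, adjusted p = 3.32e-07 by edgeR's quasi-likelihood test), and CHI (0.78) and UGT78D2 (0.77) rose with it. The CHS libraries did not overlap. The 6 further flavonoid genes, DFR, LDOX, UGT79B1, MYB75, MYB111 and TT8, had 0 to 4 reads per library and were not tested. Xylem genes gave 6 rises of 11 (median 0.34), with XCP1 (0.50) and XCP2 (0.34), proteases of dying vessel cells, and the secondary wall cellulose synthases CESA7 (0.40) and CESA4 (0.30) first by adjusted p. CESA4 missed the threshold without cis-zeatin replicate 1 (adjusted p = 0.0866 by edgeR), cis-zeatin replicate 3 (0.0524), untreated replicate 2 (0.0601) or untreated replicate 3 (0.0523), and 3 genes passed without cis-zeatin replicate 3, without untreated replicate 2 or without untreated replicate 3.

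Glucosinolates, the sulfur-rich defence compounds of the family, split by precursor. Of 12 tested genes of the aliphatic, methionine-derived branch 9 fell and 1 rose (median -0.98). CYP83A1 was at 60.3, 57.3 and 61.9 CPM in untreated roots and at 23.1, 22.0 and 13.6 CPM with cis-zeatin (log2 difference -1.62, SE 0.14, adjusted p = 1.52e-08 by edgeR's quasi-likelihood test). MYB28, the activator of the branch, went from 47.7, 45.2 and 44.6 to 27.0, 29.3 and 22.3 CPM (-0.81, SE 0.10), and SOT18 (-1.04), a sulfotransferase, and BAT5 (-0.94), a transporter of pathway intermediates, fell too. SOT17, another sulfotransferase, was the member that rose (0.35). Of 11 genes of the indole branch, which starts from tryptophan, 9 rose and 2 fell (median 0.72). MYB34, its activator, went from 121, 127 and 134 to 271, 281 and 279 CPM (1.12, SE 0.07), CYP79B2 from 203, 261 and 274 to 472, 492 and 478 CPM (0.97, SE 0.10), and IGMT5 (1.26) and SOT16 (0.72) rose as well; the activators MYB51 (-0.50) and MYB122 (-0.82) fell. In the 4 genes given by library the groups did not overlap. The root triterpene genes of the thalianol cluster rose further, THAS1 from 934, 1155 and 1111 to 3510, 3620 and 3421 CPM (1.72, SE 0.12), with THAD (1.96), THAH (1.69) and the marneral-pathway gene CYP71A16 (1.42); 5 of 7 triterpene genes rose and PEN1 fell (-0.44).

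In auxin response 7 of 17 tested genes rose and 8 fell (median -0.36): the Aux/IAA repressors IAA17 (1.45), IAA3 (1.52) and IAA19 (1.17) rose, and GH3.1, of the auxin-conjugating family, fell (-2.29). IAA3 was at 22.4, 21.4 and 18.3 CPM in untreated roots and at 52.5, 61.3 and 63.8 CPM with cis-zeatin, ranges far apart. In auxin transport and synthesis 3 of 14 rose and 6 fell, among them the efflux carriers PIN4 (1.46) and PIN2 (-0.94), the importer LAX2 (0.73) and the synthesis gene TAR2 (-1.31); the falls numbered 2 without untreated replicate 1 and 3 without cis-zeatin replicate 2, cis-zeatin replicate 3 or untreated replicate 3. In ethylene synthesis and signalling 8 of 17 rose and 4 fell. ACS7, an ACC synthase, went from 7.08, 7.05 and 9 to 34.9, 33.0 and 38.7 CPM (log2 difference 2.2, SE 0.15, adjusted p = 5.9e-10 by edgeR's quasi-likelihood test), and ACS9, another, went from 0.0902, 0 and 0 CPM, under the floor, to 2.14, 2.2 and 1.66 CPM. The ethylene receptor ETR2 fell (-0.69). Of 11 tested jasmonate genes VSP2 (1.71), JAZ7 (1.34) and JAZ10 (0.78) rose and none fell, with 5 rises without untreated replicate 2; JAZ10 missed the threshold without cis-zeatin replicate 2 or 3 or untreated replicate 1 or 3 (adjusted p from 0.0997 to 0.215 by edgeR). MYC2 was listed at 0 in all 6 libraries and was not tested.

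Cell division genes stayed near the background: 2 of 27 rose (7.41% of the list against 12.7% of all genes) and 4 fell (14.8% against 13.5%), with a median of -0.05. CYCD3;1, a D-type cyclin known as a cytokinin target, went from 22.4, 21 and 20.9 to 45.6, 52.0 and 35.9 CPM (log2 difference 1.05, SE 0.12, adjusted p = 3.99e-07 by edgeR's quasi-likelihood test), and CYCD3;2 rose by 0.44. The mitotic cyclin CYCB1;1 fell from 8.03, 7.78 and 7.63 to 5.53, 4.54 and 4.80 CPM (-0.66, SE 0.12), and CYCB1;2 fell by 0.37, a call lost without untreated replicate 1 or 2 or cis-zeatin replicate 2 or 3. CYCD3;1 and CYCB1;1 did not overlap between groups. The falls numbered 1 without cis-zeatin replicate 3 or untreated replicate 2, and 2 without untreated replicate 1. In trehalose-phosphate metabolism 5 of 15 rose and 5 fell, with the phosphatases TPPJ (2.14) and TPPH (1.53) up and TPPB (-0.64) and the synthase-like TPS5 (-0.50) down; 3 rose without untreated replicate 2. CGA1, a GATA factor of greening, was at 0.0457 to 0.228 CPM in untreated roots and 0.333 to 0.732 CPM with cis-zeatin, near the floor.

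At the same dose and time, trans-zeatin allows a direct comparison of the isomers, made as 1 pair with p-values adjusted over all tested genes. cis-Zeatin libraries were higher than trans-zeatin libraries in 4095 genes (20.5%) and lower in 4137 (20.7%), 41.2% in either direction. The type-A regulators were close under both isomers: ARR5 (-0.29, SE 0.10, adjusted p = 0.0292 by edgeR's quasi-likelihood test) and ARR9 (-0.26, adjusted p = 0.0107) were lower with cis-zeatin, and the other 8 did not pass. For ARR7 the difference was 0.13 with a 95% interval of -0.07 to 0.33, and for ARR4 0.09 with an interval of -0.07 to 0.25; the widest interval, in ARR17, ran from -0.85 to 0.24. Of the degrading enzymes CKX5 was higher with cis-zeatin (0.41), and CKX2 (-0.64), CKX3 (-0.47) and UGT85A1 (-0.60) were lower. IPT5 fell less with cis-zeatin, which left it 0.92 above trans-zeatin (interval 0.47 to 1.37), while IPT3 differed by -0.15 (interval -0.45 to 0.15) and CYP735A2 by 0.11 (interval -0.13 to 0.34). Of the other synthesis and activation genes, CYP735A1 (0.56) and IPT7 (1.98, near the floor) were higher with cis-zeatin, and LOG1 (-0.63) and LOG7 (-0.30) were lower. Of the 20 leading genes 8 differed between isomers, a share near the 41.2% of all tested genes. FLA6 (1.19), PRP1 (1.23), AT1G14960 (0.63), AT5G47980 (0.55), IRT2 (0.49), SKOR (0.73) and AT2G22122 (0.32) were higher with cis-zeatin and AT4G39675 was lower (-2.96). The leading rises were chosen as the largest with cis-zeatin, which favours higher levels with cis-zeatin among them. SKOR and AT2G22122 are falls from untreated levels that were smaller with cis-zeatin.

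Several lists lay apart between the isomers, against 20.5% of all tested genes higher with cis-zeatin than with trans-zeatin and 20.7% lower. Of 24 root hair genes 18 were higher with cis-zeatin than with trans-zeatin and none lower (median 0.90). RHS12 was at 67.3, 73.3 and 62.9 CPM with cis-zeatin and at 25, 36.2 and 36.7 CPM with trans-zeatin (log2 difference 1.05, SE 0.15, adjusted p = 9.41e-06 by edgeR's quasi-likelihood test), against 28.7, 33.0 and 31.2 CPM in untreated roots. For RHS12 the trans-zeatin and untreated ranges overlapped and the cis-zeatin range lay above both. Of 27 division genes 21 were higher with cis-zeatin than with trans-zeatin and 1 lower (median 0.53), of 17 nitrate uptake and assimilation genes 13 higher and 1 lower (0.59), of 9 flavonoid genes 8 higher and none lower (0.82), of 14 phenylpropanoid genes 10 higher and none lower (0.26), of 14 auxin transport and synthesis genes 9 higher and 1 lower (0.33), of 15 trehalose genes 9 higher and 4 lower (0.53), and of 12 aliphatic glucosinolate genes 9 higher and none lower (1.16). Higher than with trans-zeatin need not mean higher than in untreated roots. Against untreated roots, trans-zeatin libraries were lower in 20 of the 27 division genes and higher in 3. They were lower in 13 of the 17 nitrate genes and higher in 2. Of the 12 aliphatic genes they were lower in 11 and higher in none. With cis-zeatin 11 of these nitrate genes fell and 2 rose, and 9 of these aliphatic genes fell and 1 rose. MYB28 was at 22.3 to 29.3 CPM with cis-zeatin and at 4.73 to 6.72 CPM with trans-zeatin (2.23, SE 0.12). Of 9 photosynthesis genes all 9 were lower with cis-zeatin than with trans-zeatin (median -1.46). Of these, 7 were higher with trans-zeatin than in untreated roots and none lower. Among 10 handling genes 5 were lower with cis-zeatin than with trans-zeatin and 1 higher. The part of both lists in the isomer differences was not tested.

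**Figure D4:**
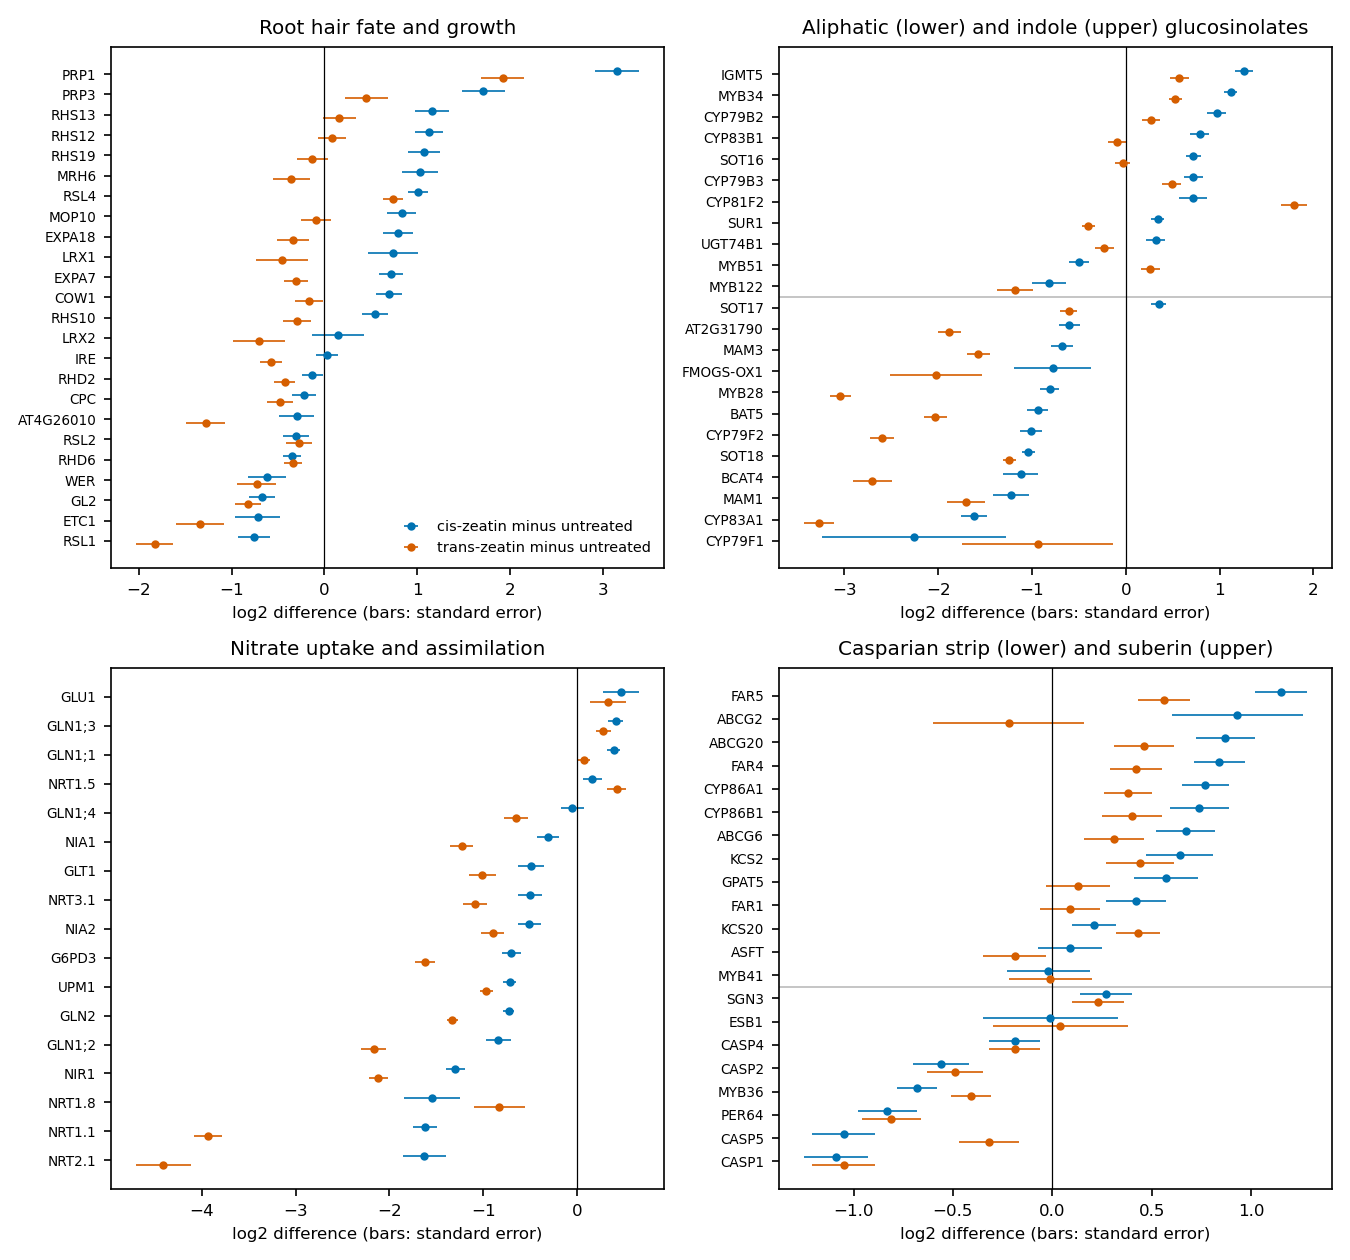
Log2 difference from untreated roots (x axes, with SE bars) of tested members of the root hair, glucosinolate, nitrate, and Casparian strip and suberin lists, for cis-zeatin and trans-zeatin in full phosphate, which share the untreated libraries. RHS12 sits at 1.13 for cis-zeatin and 0.08 for trans-zeatin, PRP1 at 3.15 and 1.92, and CASP1 lies at almost the same place for both (-1.09 and -1.05).

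Among called genes above the median level whose libraries did not overlap between isomers, the 6 widest gaps in each direction were as follows. Higher with cis-zeatin were AT4G01390, a TRAF-like protein (2.96), ATC, a relative of the flowering repressor TFL1 (2.95), NRT1.1 (2.31), the extensin-like AT5G06630 (2.28), the lipid-transfer-type protein AT4G12500 (2.26) and AT2G48080, a 2-oxoglutarate oxygenase (2.15). ATC was at 38.2, 49.1 and 41.1 CPM with cis-zeatin, 47.7, 41.7 and 33.2 CPM in untreated roots and 5.47, 4.53 and 6.61 CPM with trans-zeatin. Lower with cis-zeatin were the senescence-associated SEN1 (-4.21), AT1G19530 (-3.78), AT1G21400 (-3.71), the amino acid transaminase BCAT-2 (-3.38), AT4G15990 (-3.08) and the glucosidase DIN2 (-2.93). SEN1 was at 4.95, 4.59 and 9.12 CPM with cis-zeatin, 6.05, 8.42 and 10.5 CPM in untreated roots and 121, 116 and 110 CPM with trans-zeatin. In ATC and SEN1 the cis-zeatin and untreated ranges overlapped, and the trans-zeatin libraries stood alone.

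The design also asks whether the cis-zeatin response depends on phosphate. The difference between the responses in low and in full phosphate passed the test in 842 genes (4.21%), 315 (1.58%) with a more positive response in low phosphate and 527 (2.64%) with a more negative one. The counts were 254 and 499 without low-phosphate cis-zeatin replicate 2, and the first was 189 without full-phosphate cis-zeatin replicate 1 and 201 without full-phosphate untreated replicate 2. CYP735A2 rose by 2.09 in full and 3.69 in low phosphate, a difference of 1.60 (SE 0.16, adjusted p = 4.02e-06 by edgeR's quasi-likelihood test), with mean levels of 58.6 and 250 CPM in full and 22.1 and 286 CPM in low phosphate, untreated and treated in turn. CKX4 differed by 1.55, with means of 43.7 and 159 CPM in full and 6.75 and 72.2 CPM in low phosphate. IPT3 fell in full phosphate (-1.66) and differed by 0.05 from untreated roots in low phosphate (adjusted p = 0.814), where its untreated mean was 6.57 CPM against 14.8 CPM in full phosphate. In CYP735A2, CKX4 and IPT3 the untreated mean was lower in low than in full phosphate.

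Of the 24 root hair genes 5 (PRP3, RHS12, RHS13, RHS19 and MRH6) had a more negative response in low phosphate, against 2.64% of all genes, and none a more positive one; the list's median was -0.53, and PRP1 did not pass (-0.64, adjusted p = 0.275 by edgeR's quasi-likelihood test). RHS19, a peroxidase and chosen after its values were seen, was at a mean of 86.9 CPM in untreated and 182 CPM in cis-zeatin roots in full phosphate, and at 613 and 559 CPM in low phosphate, so that its response differed by -1.20 (SE 0.24, adjusted p = 0.00418 by edgeR's quasi-likelihood test). OCT1, an organic cation and carnitine transporter, had means of 2.54 and 1.64 CPM in full and 233 and 11.5 CPM in low phosphate, the most negative difference of the genes named (-3.71, SE 0.44). Low-phosphate cis-zeatin replicate 2 differed more from its replicates than any other library (chi-square per degree of freedom 31.8 and 29.4); without it CYP735A2 gave 1.67, CKX4 1.59, IPT3 1.75, RHS19 -1.17 and OCT1 -3.67, all still past the threshold.

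**Figure D5:**
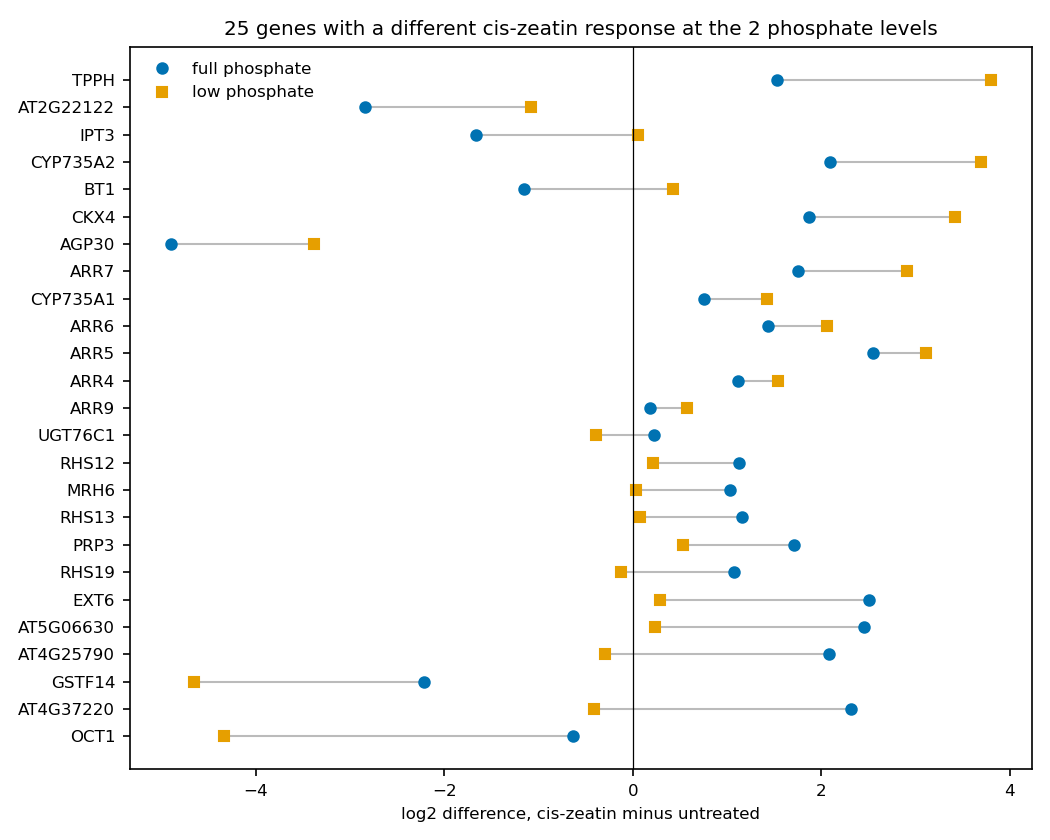
Log2 difference between cis-zeatin and untreated roots in full phosphate (circles) and low phosphate (squares) for 25 genes whose difference between the 2 passed the test. TPPH moves from 1.53 to 3.80 at the top, OCT1 from -0.63 to -4.34 at the bottom, RHS19 from 1.07 to -0.13 and PRP3 from 1.71 to 0.53.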

How the data were processed

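Poly(A) RNA of whole roots was read as 50-base single-end reads, and 18 libraries in 6 groups of 3 were grouped from the labels. Per the submitters' processing notes the authors used CASAVA 1.4, FastQC, HISAT2, HTSeq and edgeR; the genome build and the strand setting are not given in the sources used here. The deposited table is named as normalized but holds whole-number read counts for 37037 entries, of which 24653 had reads. The deposited sequencing report, whose values are other read totals per library, gave the discarded reads. Near-identical genes may share reads.

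From the counts, genes were kept by filterByExpr (minimum count 10, 19982 genes), scaled by TMM and fitted over all 18 libraries with edgeR 4.0.16 in R 4.3.3 (quasi-likelihood test, Benjamini-Hochberg over all tested genes). The 20 leading genes had a called difference, a mean level above the median and replicates that did not overlap; each list outside the cytokinin pathway names up to 4 members by smallest adjusted p (2 are not reported here). Other members, such as IRT1, the 5 root hair genes that fell, RHS13, RHS19, MRH6, MYB51, MYB122, BT2, SOT17, PEN1, TIP2;1, BGLU28 and BCAT4, were named after their values were seen. The gene lists and members were chosen with earlier results of these data known. Picking list members by adjusted p favours libraries that do not overlap, so statements of separate libraries are description only (45.4% of all tested genes did not overlap). On simulated counts for cis-zeatin against untreated roots, run on 19778 genes, 18% of genes changed 1.25-fold, 76% at 1.5-fold, 86% at 2-fold and 98% at 4-fold were recovered. In that simulation 50 genes were changed at each size and every gene had the same spread, whereas 5237 genes (26.2%) were called in the data. These shares therefore describe the simpler setting and not the data. Alternatives were DESeq2 1.42.0, median-of-ratios scaling, other filters, a fit of the compared groups, a robust fit, a replicate block and each library left out. Replicate numbers were checked for pairing. Same-numbered untreated and cis-zeatin libraries correlated at -0.028 to 0.039, so none was detected, although 3 libraries a group cannot exclude it.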

Additional observations from a re-analysis of the deposited data

Results flagged for a closer look

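The response to cis-zeatin differed between low and full phosphate in 842 genes, by the test of that difference in edgeR's quasi-likelihood fit. Values below are the log2 response in low minus that in full phosphate. Among cytokinin genes the difference was positive in IPT3 (1.71), CYP735A2 (1.60), CKX4 (1.55), ARR7 (1.16), CYP735A1 (0.66), ARR6 (0.63), ARR5 (0.56), ARR4 (0.43) and ARR9 (0.39), and negative in UGT76C1 (-0.61). It was also negative in 1 of 6 tested type-B regulators and in 1 further gene of synthesis and activation, with no value given here. Among root hair genes it was negative in RHS19 (-1.20), PRP3 (-1.18), RHS13 (-1.08), MRH6 (-1) and RHS12 (-0.93). Of the genes that lay farthest apart, TPPH (2.26), AT2G22122 (1.76), BT1 (1.58) and AGP30 (1.53) were more positive in low phosphate. OCT1 (-3.71), AT4G37220 (-2.72), GSTF14 (-2.44), AT4G25790 (-2.37), EXT6 (-2.21) and AT5G06630 (-2.21) were more negative, and GSTF14 was at a mean of 0.154 CPM in low-phosphate cis-zeatin roots, near the floor. EXT6 and AT5G06630 are similar extensin-like genes that may share reads. Without low-phosphate cis-zeatin replicate 2, which stands apart from its replicates, ARR5 (0.45, adjusted p = 0.0856 by edgeR), ARR9 (0.28, adjusted p = 0.0777) and PRP3 (-0.96, adjusted p = 0.0874) missed the threshold. The other 22 genes given a value above kept their direction and passed it. Over all 19 alternatives ARR9 missed the threshold in 13, EXT6 in 11 (among them DESeq2, adjusted p = 0.0548, and the robust fit, 0.143), PRP3 in 9, ARR5 in 8 and ARR4 in 5. MRH6 and AT5G06630 missed it in 3 each, both without full-phosphate cis-zeatin replicate 2 (0.0792 and 0.0764 by edgeR) and without full-phosphate untreated replicate 1 (0.0727 and 0.0644). UGT76C1 missed it in 2, without full-phosphate untreated replicate 1 or low-phosphate untreated replicate 3 (0.0547 in each).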

How the results depend on the processing

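Counts of genes that rose and fell with cis-zeatin ran from 2398 and 2531 (minimum count 50) to 3270 and 3073 (only the compared groups fitted) over the alternatives that kept all libraries, with 2615 and 2533 by DESeq2, against 2537 and 2700 as reported. Leaving out 1 library gave 2146 to 2309 rises and 2091 to 2324 falls. The replicate block gave 2532 rises and 2679 falls. The check of pairing detected no shared deviation, although 3 libraries a group cannot exclude pairing. Against trans-zeatin, leaving out 1 library gave 3205 to 3618 genes higher and 3457 to 3741 lower, and the replicate block 4040 and 4085. For the difference between phosphate levels, leaving out 1 library gave 189 to 384 genes more positive and 372 to 589 more negative, DESeq2 386 and 726, and the replicate block 306 and 525; the cause was not tested. Calls were compared for 281 genes: the 20 leading genes, the list genes that passed the test and ARR9. Of these, 252 to 258 kept their call with 1 library left out, and none changed sign under any alternative run. Named genes that did not pass, other than ARR9, were not part of that comparison. In the simulated counts small changes were often missed (the shares recovered stand with the methods), in a setting simpler than the data. Genes near the floor of 3 reads per library have no usable fold.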
